A study of Arabidopsis thaliana with 12 samples.

Results

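The transcript changes of lug-3 mutants of Arabidopsis thaliana were compared between rosette leaves and flowers, to find the genes whose change depended on the organ. The quantity tested was the interaction, that is the difference between lug-3 and wild type in flowers minus the same difference in leaves, over all 12 arrays of the series. A positive interaction means that lug-3 was higher relative to wild type in flowers than in leaves, and a negative one the reverse. A probe set is a group of probes on the array that reads 1 transcript or, for some sets, several. It was tested when its signal was above 16.4 on at least 3 arrays. Of the 22810 probe sets on the array, 17864 were tested. The third highest signal of the weakest probe set tested was 16.401, and that of the strongest one left out was 16.395.

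LEUNIG (LUG) encodes a transcriptional corepressor of the Groucho/Tup1 kind, which binds no DNA itself and is brought to its target genes by the adaptor SEUSS and by DNA-binding partners. It is best known for keeping the homeotic gene AGAMOUS, which specifies stamens and carpels, out of the outer whorls of the flower. LUG is also active outside the flower, where leaf shape and growth depend on it.

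The 4 groups were wild-type leaves, lug-3 leaves, wild-type flowers and lug-3 flowers, each with 3 arrays, and all plants were of the Ler-0 background. Leaves were mature rosette leaves at developmental stage 3.90 and flowers were taken at stage 6.90, so organ and stage cannot be told apart. All seeds had 4 days of cold after sowing, and all plants were then kept at a constant 20 °C under constant light. Each sample was a pool of 20 plants, and lug-3 is a single allele. Per the labels most lug-3 plants were smaller and more branched than wild type, with longer petioles. The labels do not say whether the 3 samples of a group were grown separately, and p-values here cover no more than the variation among these arrays, some or all of which may be technical.

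The organ labels were checked against marker genes, although the extraction text of the flower samples also speaks of rosette leaves. The summed signal of 16 pollen genes was 178 to 279.9 on wild-type leaf arrays and 5272 to 7737 on wild-type flower arrays. The summed signal of 6 photosystem and light-harvesting genes was 15189 to 17159 in wild-type leaves and 6215 to 7714 in wild-type flowers. The LUG transcript itself was not analysed here, as the annotation used names none of the probe sets for it. RNA quality was uneven between the groups. It was read from GAPDH control probes, whose 3'/5' signal ratio rises as RNA degrades. In leaves this ratio was 2.66 ± 0.877 (SD, n = 3) for wild type and 1.58 ± 0.102 for lug-3. In flowers it was 1.82 ± 0.227 for wild type and 2.26 ± 0.754 for lug-3. The interaction of its log2 value was 0.97 (exact two-sided permutation test over 400 arrangements, p = 0.065), and that of the actin ratio was 1.37 (exact permutation p = 0.025). Values from a fit with the GAPDH ratio as a covariate therefore stand beside the main results, and the part of RNA quality in them was not tested further.

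The effect of lug-3 differed between the organs for 4112 probe sets, 23.0% of those tested, 2066 (11.6%) of them with a positive and 2046 (11.5%) with a negative interaction. Probe sets were then separated by where their signal passed 16.4, to keep genes with no signal in one organ apart from genes expressed in both. Most of them, 14838, were expressed in both organs (above the threshold on at least 3 of the 6 arrays of each), and of these 3446 were called (23.2%), 1944 positive and 1502 negative. Another 1002 were above the threshold on no leaf array and on at least 3 flower arrays. Here 398 were called (39.7%), and 369 of them were negative, 324 of these with a change called in flowers alone. Of the 1002, 408 were called lower and 37 higher in lug-3 flowers, and the median leaf change was 0.02. The interaction in this class therefore mostly restates the flower change. Of 412 probe sets above the threshold on no flower array, 51 were called (12.4%), 29 positive and 22 negative. The remaining 1612 met none of these definitions, and 217 of them were called.

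**Figure D1:**
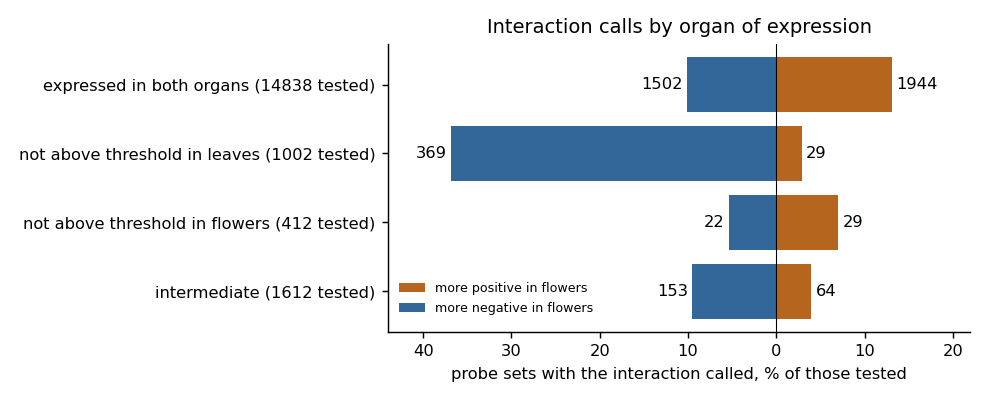
Probe sets with the interaction called, as percent of those tested in each class of organ expression, drawn to the right where the lug-3 change was more positive in flowers and to the left where it was more negative, with counts at the bar ends. Probe sets not above the threshold in leaves had 369 negative against 29 positive calls, and there the interaction mostly restates the flower change.

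The median interaction was -0.56 over the 1002 probe sets not above the threshold in leaves, 0.08 over those expressed in both organs and 0.05 over all tested. With the GAPDH covariate 2295 of the 4112 calls remained, 1867 in the class expressed in both organs, 287 in the class not above the threshold in leaves and 29 in the class not above it in flowers. When each array in turn was left out, 2653 calls held every time. The total ranged from 3040 without wild-type flowers 2 to 4471 without wild-type leaves 1.

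Among the 3446 calls of genes expressed in both organs, a change called in leaves alone was the most frequent pattern. The lug-3 change passed the test in leaves and not in flowers for 1997 of them (58.0%), and in flowers and not in leaves for 605 (17.6%). For 308 (8.94%) both changes passed the test with opposite signs, and for 28 both passed with 1 sign but unequal size. The other 508 passed in neither organ taken alone. Across all tested probe sets lug-3 changed 3990 (22.3%) in leaves and 2147 (12.0%) in flowers, so leaf calls were the more numerous before any split by interaction. In flowers 943 (5.28%) were higher and 1204 (6.74%) lower in lug-3, and in leaves 2019 (11.3%) were higher and 1971 (11.0%) lower.

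**Figure D2:**
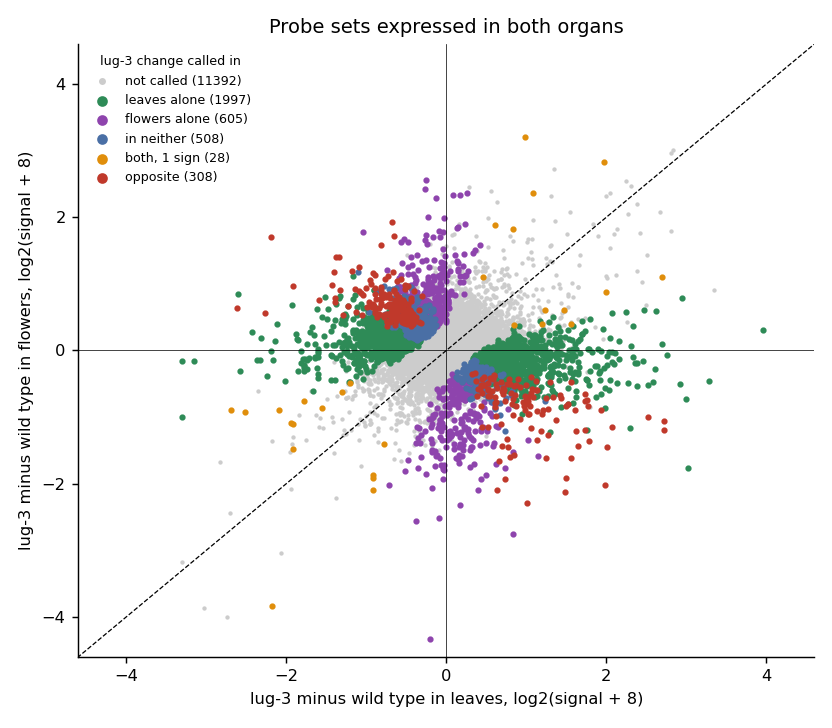
Log2 change in lug-3 against wild type in leaves (x axis) and in flowers (y axis) for the 14838 probe sets expressed in both organs. Colours mark the 3446 interaction calls by the organ in which the change itself was called, grey points were not called, and the dashed line marks equal change. The 308 opposite changes fill the upper left and lower right of the plot.

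Of the 308 opposite changes, 119 rose in lug-3 leaves and fell in lug-3 flowers. The 6 largest of these with a named gene were BZIP61, EXPA8, AT1G29660, AT1G22330, AT5G45950 and AT4G18970. BZIP61, a bZIP transcription factor gene, had signals of 0.580, 1.32 and 1.23 on the wild-type and 18, 30.7 and 36.9 on the lug-3 leaf arrays. In flowers they were 43, 42.8 and 30.6 in wild type and 1.61, 1.87 and 7.63 in lug-3. The transcript was thus above the threshold in wild-type flowers and lug-3 leaves alone, and no array of one genotype overlapped the other in either organ. The log2 change was 1.98 in leaves and -2.02 in flowers (interaction -4.0, SE 0.320, adjusted p = 4.31e-05). AT1G22330 showed the same layout at lower signal, with 17.7, 24.3 and 35.2 in lug-3 leaves, 21.7, 19.3 and 30.0 in wild-type flowers and at most 5.64 in the other groups (interaction -3.17). These were the only probe sets of all tested that were above the threshold on every array of wild-type flowers and lug-3 leaves and on no array of the other groups, and none showed the reverse layout.

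EXPA8 encodes an alpha-expansin, a protein that loosens cell walls during growth. Its signals were 30.8, 62.3 and 132 in wild-type and 186, 193 and 205 in lug-3 leaves. In flowers they were 332, 376 and 333 in wild type and 86, 76.8 and 58.4 in lug-3. Again neither pair of groups overlapped, with changes of 1.48 in leaves and -2.13 in flowers (interaction -3.61, SE 0.478, adjusted p = 0.000670). AT1G29660 rose from 161, 223 and 239 to 741, 935 and 883 in leaves and fell from 407, 357 and 241 to 131, 136 and 85.1 in flowers (interaction -3.46). AT5G45950 and AT4G18970 were far higher in wild-type flowers than in leaves, and their interactions were -3.14 and -3.09.

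Further genes with a symbol in this direction were chosen after their values were seen. XTH16, a xyloglucan endotransglucosylase/hydrolase gene that acts on wall polysaccharides, rose by 1.05 in leaves and fell by 1.17 in flowers. ACT11, a reproductive actin gene, had signals of 14.5, 16.2 and 24.2 in wild-type and 44.5, 56.8 and 55.8 in lug-3 leaves against 283, 239.7 and 249.8 and 138, 129 and 138 in flowers (interaction -2.10, adjusted p = 0.000140). TUB7, a beta-tubulin gene, rose by 1.13 and fell by 0.59. THE1, a receptor kinase that monitors the state of the cell wall, had 58.4, 59.2 and 65.3 in wild-type and 144, 159.8 and 179.8 in lug-3 leaves. Its flower signals were 126, 121 and 135 in wild type and 85.1, 92.4 and 91.1 in lug-3, a fall of 0.47 (interaction -1.77, SE 0.158, adjusted p = 8.55e-05). RALFL24, of the RALF family of secreted signalling peptides, rose by 0.96 and fell by 0.83, and BGLU15, a beta-glucosidase gene, by 0.52 and 1.15.

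The other 189 opposite changes fell in lug-3 leaves and rose in lug-3 flowers. The 6 largest with a named gene were HIS1-3, AT1G22160, AT1G67920, AT4G09760, AT5G50360 and AT5G53710. HIS1-3 encodes a linker histone variant induced by drought. Its signals were 64.9, 126 and 272 in wild-type and 28, 18.6 and 22.1 in lug-3 leaves, and 51.5, 43.4 and 20.3 in wild-type and 119, 164 and 127 in lug-3 flowers. The wild-type leaf arrays were widely spread but all lay above the lug-3 ones, and the flower groups did not overlap (interaction 3.89, SE 0.571, adjusted p = 0.00111). AT1G22160 fell from 234, 238 and 307 to 51.4, 27.7 and 29.8 in leaves and rose from 363, 402 and 351 to 589.6, 553 and 599 in flowers (interaction 3.25, adjusted p = 4.17e-05). AT4G09760 fell from 598, 579 and 628 to 130.3, 105 and 121 in leaves, and its rise in flowers, from 65.8, 80.9 and 46 to 94.5, 97.7 and 98.2, was the smaller part of an interaction of 2.84. AT5G53710 had the opposite balance, a fall of 0.68 in leaves and a rise of 1.93 in flowers. The interactions of AT1G67920 and AT5G50360 were 2.89 and 2.78.

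Further genes with a symbol in this direction were again chosen after their values were seen. XERICO, a RING-H2 gene that raises abscisic acid levels, had signals of 181, 337 and 314 in wild-type and 102, 141 and 171 in lug-3 leaves. In flowers it had 181, 189 and 191 in wild type and 377, 402 and 370.4 in lug-3 (interaction 1.95, adjusted p = 0.00167). ATSPS4F, a sucrose phosphate synthase gene, fell by 1.33 in leaves and rose by 0.90 in flowers. CRR42 and PIFI, both needed for the chloroplast NADH dehydrogenase-like complex, fell by 0.81 and 0.54 in leaves and rose by 0.68 and 0.73 in flowers. CCL, which had signals of 3167, 3631 and 3400.2 in wild-type leaves and 698, 745 and 817 in wild-type flowers, had changes of -0.64 and 0.71. TRY, an inhibitor of trichome fate, had changes of -0.62 in leaves and 0.70 in flowers, and its interaction of 1.32 did not pass the test with the GAPDH covariate (1.10, adjusted p = 0.0626). GI, the clock gene GIGANTEA, fell by 0.59 in leaves and rose by 0.64 in flowers (interaction 1.23).

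**Figure D3:**
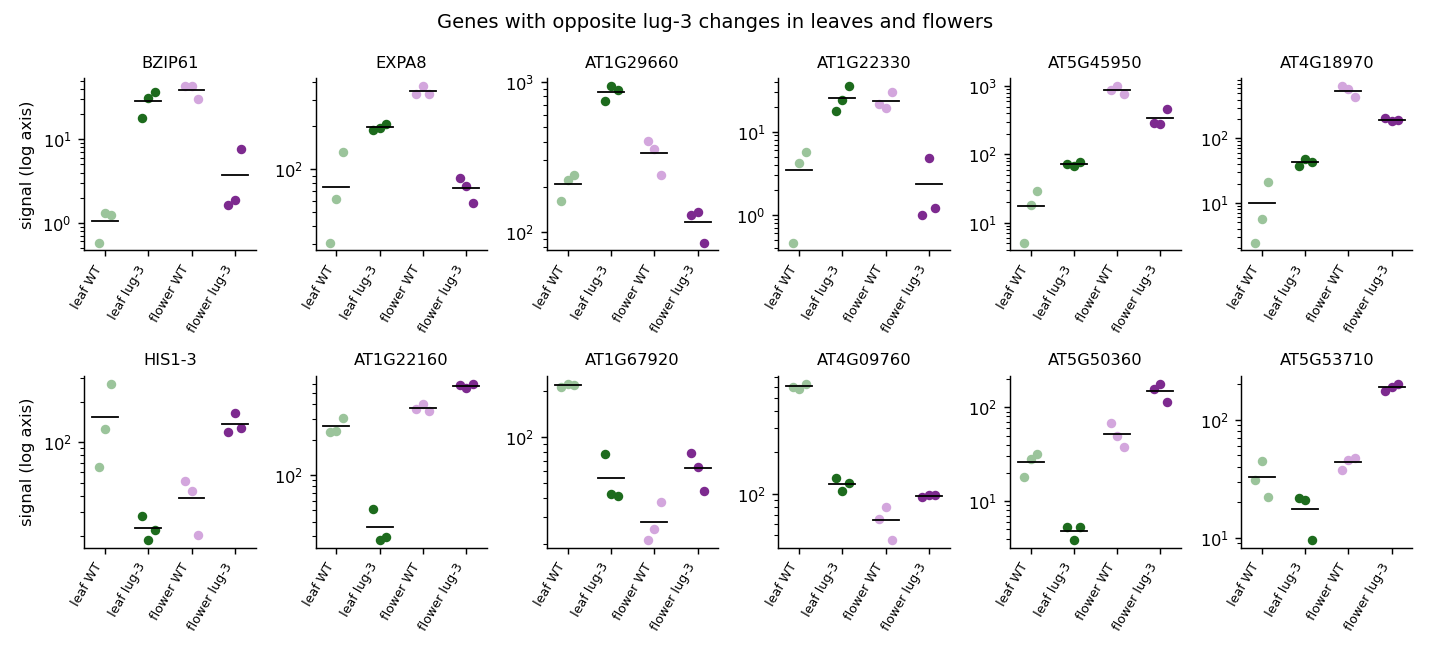
Signal on each array (log axis, 1 scale per panel) for the 12 named genes with the largest opposite changes, by group, with the group mean as a bar. In the upper row lug-3 is above wild type in leaves and below it in flowers, and in the lower row the reverse.

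All 308 opposite probe sets kept the interaction call when each array in turn was left out, and 301 kept it with the GAPDH covariate. They were picked for passing both organ tests with opposite signs, which by itself favours keeping the call. Of all 4112 calls, 2653 held in every leave-out. The number that meets all 3 tests at once, the interaction and both organ changes, was less stable. Leaving out wild-type flower array 1 or 2 brought it to 116 or 138, lug-3 flower array 1 or 2 to 158 or 120, and lug-3 leaf array 2 or 3 to 190 or 195.

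The same interaction can be read as a change in the contrast between organs. In wild type 10580 probe sets (59.2%) differed between flowers and leaves, 5896 (33.0%) higher in flowers and 4684 (26.2%) higher in leaves. In lug-3 9137 (51.1%) differed, 5671 (31.7%) higher in flowers and 3466 (19.4%) higher in leaves. Past 2-fold, 3173 were higher in flowers and 2110 in leaves in wild type, against 2294 and 1411 in lug-3, and the median size of the organ difference was 0.46 on the log2 scale against 0.55 in wild type. Of the 4112 interaction calls, 1409 had an organ difference called in wild type alone and 760 in lug-3 alone. For 280 the organ difference was called in both genotypes with opposite signs, and 273 of these were expressed in both organs. Of those 273, 188 were higher in wild-type leaves and 85 higher in wild-type flowers.

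EXPA8, BZIP61, THE1 and HIS1-3 were among the genes whose organ preference turned around. EXPA8 was 2.29 higher in flowers on the log2 scale in wild type and had an organ difference of -1.33 in lug-3 (adjusted p = 9.42e-05 and 0.00626). The values for BZIP61 were 2.36 and -1.64, those for THE1 0.98 and -0.79. HIS1-3 ran the other way, -1.66 in wild type and 2.23 in lug-3. In contrast AT4G09760, with a difference of -3.11 in wild type, came out nearly level in lug-3 (-0.27, adjusted p = 0.183), and AT1G22160 went from a small organ difference of 0.51 to one of 3.77.

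Genes called in leaves alone divided almost evenly, 977 raised in lug-3 leaves with a negative interaction and 1020 lowered with a positive one. The largest negative values were those of AT2G38240, AT2G10940, EXO and AT4G23820. AT2G38240 had signals of 4.63, 3.11 and 38.4 in wild-type and 19.2, 346 and 355 in lug-3 leaves, where the lowest lug-3 array lay inside the wild-type range, and 185, 195 and 181 and 28.5, 53.3 and 75.3 in flowers, where the groups did not overlap but the change did not pass the test (interaction -4.79, SE 1.20, adjusted p = 0.0145). AT4G23820 had the firmer value, 22.9, 43.5 and 69.7 against 198, 281 and 289.9 in leaves and 698, 651 and 675 against 554, 463 and 383 in flowers (-2.93, SE 0.391, adjusted p = 0.000705). EXO, EXORDIUM, a gene of cell expansion, rose by 1.76 in leaves and had a flower change of -1.20 (adjusted p = 0.106), and its interaction of -2.96 became -2.10 with the GAPDH covariate (adjusted p = 0.0753). The interaction of AT2G10940 was -3.42, with signals of 39, 196 and 333 in wild-type and 875, 1189 and 1327 in lug-3 leaves.

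The next genes, which have a symbol and rose in leaves alone, were chosen after their values were seen. SKU5, a multicopper oxidase-like protein of the cell surface that affects directional growth, had 57, 124 and 133 in wild-type and 278, 486 and 519 in lug-3 leaves. Its flower signals of 567, 488 and 477 and 282, 224 and 327 gave a change of -0.87 that did not pass the test (interaction -2.85, adjusted p = 0.00111). SWEET17, a fructose transporter of the vacuole, rose by 2.30 in leaves against 0.07 in flowers, TBL45, of a family that acetylates wall polysaccharides, by 1.74 against -0.44, and GH9B7, an endoglucanase gene, by 1.41 against -0.14. EXLA1, an expansin-like gene, rose by 1.49 against -0.07, but its interaction of -1.56 was -1.05 with the covariate (adjusted p = 0.145). HEME1, a uroporphyrinogen decarboxylase of chlorophyll and haem synthesis, rose from 171, 152 and 157 to 443, 480.5 and 539.6 in leaves, and its flower change was -0.07.

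In the positive direction the largest leaf-alone values were those of AT1G80130, SIS, AT1G01640 and AT1G05340, all lower in lug-3 leaves. AT1G80130 fell from 1109, 542 and 1063 to 119, 151 and 137 in leaves, a fall of 2.61, while its flower signals were 138, 146 and 98.3 in wild type and 180.0, 202 and 349 in lug-3 (interaction 3.46, SE 0.414, adjusted p = 0.000356). The leaf groups were far apart, and the flower groups did not overlap although that change did not pass the test (adjusted p = 0.0836). The interactions of SIS, a salt-induced gene, AT1G01640 and AT1G05340 were 2.32, 2.29 and 2.24.

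The next genes, which have a symbol and fell in leaves alone, were likewise chosen after their values were seen. GAMMA-VPE, a vacuolar processing enzyme of senescing and stressed tissue, fell from 4924, 3703 and 4470.2 to 1203, 919.8 and 1089.8 in leaves, and its flower signals of 2040.1, 1662 and 1078 and 1132, 1115 and 1093 overlapped (interaction 1.55, adjusted p = 0.00352). ALN, allantoinase, which recycles nitrogen from purines, fell from 238, 272 and 401 to 89.9, 92.1 and 85.5 in leaves with a flower change of -0.10. DELTA-OAT, ornithine aminotransferase, and PDC2, a pyruvate decarboxylase, both fell by 1.24 in leaves, and their flower changes were 0.07 and 0.17.

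Among the 605 genes called in flowers alone, 248 had a negative and 357 a positive interaction. AT4G15750 had the largest, with flower signals of 1656, 1632 and 1457 in wild type and 50.6, 87.1 and 78.6 in lug-3, against 35.4, 21.5 and 31.6 and 29.9, 19.3 and 23.7 in leaves (interaction -4.13, SE 0.285, adjusted p = 2.60e-05). It was expressed weakly in leaves and the leaf groups overlapped. HTB11, a histone H2B gene, fell in flowers from 240.2, 283 and 235 to 41.3, 85.2 and 12.2, and its leaf signals lay between 105 and 176, with an interaction of -2.43 that was -2.0 with the covariate (adjusted p = 0.0941). AT2G14900 and AT5G09370 had interactions of -2.36 and -2.18, the latter -1.89 with the covariate (adjusted p = 0.106). GH3.3, which conjugates auxin to amino acids, went from 266, 232 and 231 to 74.5, 63.4 and 69.6 in flowers and from 33.2, 28.8 and 47 to 43, 49.8 and 50.3 in leaves (interaction -2.05, SE 0.211, adjusted p = 0.000166). SWEET8, a sugar transporter of the tapetum, fell by 1.42 in flowers, and RR16, a response regulator of cytokinin signalling, by 1.64, but the interaction of RR16 was lost in single leave-outs (adjusted p up to 0.0548, without wild-type flowers 2).

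The rises in flowers alone were led by AT1G11210, CYP71B26, AT2G05540 and PUB19. CYP71B26, a cytochrome P450 gene, had 36.6, 32.3 and 33 in wild-type and 227, 251 and 242 in lug-3 flowers, and 86.3, 186 and 184 in wild-type and 96.8, 129 and 138 in lug-3 leaves (interaction 2.82, SE 0.338, adjusted p = 0.000359). In wild type it was lower in flowers than in leaves, and in lug-3 every flower array lay above every leaf array. PUB19, a ubiquitin ligase that limits abscisic acid and drought responses, rose from 39.3, 34.6 and 39.1 to 288, 257 and 147 in flowers (interaction 2.25). LTI30, a dehydrin induced by cold and abscisic acid, rose from 93.2, 95 and 76.1 to 626, 634 and 267 in flowers, and its leaf arrays overlapped (269, 90.0 and 221 against 183, 196 and 219, interaction 2.16). On a list of cold, drought and abscisic acid genes 2 of 5 tested were called, both positive, against 11.6% positive over all probe sets. With the covariate 1 of these calls remained. COR15A on that list had a negative estimate (-0.89) and was not called. AGO7, the ARGONAUTE protein that starts the production of trans-acting siRNAs, rose from 14.2, 16.4 and 19.8 to 56.8, 49.3 and 56.1 in flowers with a leaf change of -0.06 (interaction 1.39). With the covariate that interaction was 1.04 (adjusted p = 0.0660). The interaction of AT1G11210 was 2.83. That of AT2G05540 was 2.69 with an SE of 0.865, with the third lug-3 flower array near wild type (340.5, 509 and 48.4 against 38.8, 31.3 and 27.6), and its call was lost without lug-3 flowers 1 (adjusted p = 0.0950).

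Of the probe sets expressed in both organs, 28 changed the same way in both organs with a called difference in size. ATPMEPCRB, a pectin methylesterase gene, rose more in leaves than in flowers (2.70 and 1.10, interaction -1.60), which the covariate fit put at -0.68 (adjusted p = 0.243). AT1G73610 had changes of -0.92 in leaves and -2.09 in flowers, and its call was lost with the covariate (adjusted p = 0.0892) and without wild-type flowers 1 (adjusted p = 0.0622). AT1G64360 fell from 2064, 1846 and 2231 to 411, 255 and 278 in leaves and from 88.2, 94.3 and 59.3 to 36.1, 38.5 and 41.8 in flowers, so that the fall was larger in leaves on the log2 scale (interaction 1.80, adjusted p = 0.00134). AT5G39520 behaved alike, with -2.52 and -0.93. ATCES1, a ceramidase gene ranked in after its values were seen, fell by 2.10 and 0.89.

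Genes not above the threshold in leaves were kept apart, because their leaf signals lay near the background. Their interaction mostly restates the flower change and does not by itself show a differing response in leaves. With all 6 leaf arrays at or below 16.4, the leaf change cannot exceed 1.61 on the scale used. Of the 398 calls here, 344 were called in flowers alone, 324 of them with a negative interaction. BAN (BANYULS), which makes the precursors of seed coat tannins as anthocyanidin reductase, had 357, 295 and 233 in wild-type flowers and 3.79, 7.92 and 2.68 in lug-3 flowers, against at most 2.84 on any leaf array (interaction -4.5, SE 0.248, adjusted p = 9.47e-06). AT1G56100 went from 705, 563 and 482 to 15.4, 26 and 20.8 in flowers (-4.5) and AT2G38900 from 331, 351 and 208 to 2.98, 11.3 and 12.9 (-4.07). The interaction of AT2G30810 was -3.50. In BAN, AT2G38900 and AT2G30810 the lug-3 flower signal itself was at or below the threshold on all 3 arrays. RR22, a cytokinin response regulator gene ranked in after its values were seen, went from 76.6, 66.7 and 52.1 to 1.18, 1.01 and 1.41 (interaction -3.04), with leaf signals of at most 2.05.

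Pollen genes made up part of this class. Of 36 loci on a list of pollen genes, 16 were tested, and 13 had a negative interaction call and none a positive one, against 11.5% negative over all probe sets. The median interaction of the 16 was -1.72, against 0.05 over the 9893 named genes tested. The median change was -1.71 in flowers and -0.04 in leaves, and all 16 fell in lug-3 flowers, but only 9 of the 16 were in the class not above the threshold in leaves. With the covariate 10 of the 13 calls remained. AT59, a pectate lyase gene of pollen, had 221, 225 and 135 in wild-type and 30.0, 38.4 and 56.2 in lug-3 flowers (interaction -2.40). PLIM2a, an actin-binding LIM protein gene of pollen, had an interaction of -1.79, and MGH3, a histone H3 gene of sperm cells, one of -1.41, which was lost with the covariate (adjusted p = 0.283) and without wild-type flowers 2 (adjusted p = 0.0654). The summed signal of the 16 genes was 1364 to 2498 on lug-3 flower arrays and 208 to 244 on lug-3 leaf arrays. The flower sums lay below the lowest wild-type flower array at 5272, and fewer pollen cells and less RNA per cell cannot be told apart in such samples. The part of pollen content in the other falls of flower-expressed genes was not tested.

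Tapetum and pollen coat genes, which serve the developing pollen, also held negative calls. Of 10 tested, 7 had a negative call and none a positive one, against 11.5% negative over all probe sets. Their median was -1.34, and 5 kept the call with the covariate. In lug-3 flowers 8 of the 10 fell and 1 rose. ATA27, an anther beta-glucosidase gene, had 895, 928 and 1347 in wild-type and 294, 374 and 436 in lug-3 flowers (interaction -1.35), with leaf signals of at most 3.8. AT5G61605 had an interaction of -2.40, and AT1G75920 of -2.04. The summed signal of the 10 genes was 3173 to 3723 in wild-type and 1341 to 1453 in lug-3 flowers. Other reproductive genes with a symbol, ranked in after their values were seen, were ANX2, a receptor kinase of pollen tubes, with 86, 104 and 64.7 in wild-type and 10.1, 16.1 and 23.7 in lug-3 flowers, and RALFL25, a RALF-like peptide gene, with an interaction of -2.29.

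Only 29 probe sets of the class not above the threshold in leaves had a positive call. AT3G44430 had 1.51, 2.72 and 3.46 in wild-type and 43.6, 40.3 and 36.9 in lug-3 flowers and at most 4.59 in leaves, a gain in lug-3 flowers alone (interaction 2.11, SE 0.160, adjusted p = 3.27e-05). AT3G47680 went from 1.91, 4.88 and 0.770 to 39.1, 24.9 and 43.1 (2.24) and AT4G00910 from 4.05, 3.69 and 4.80 to 34.7, 23.9 and 27.3 (1.78). CYP71B37, a cytochrome P450 gene, had an interaction of 1.51, with a flower change of 0.95.

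Genes not above the threshold in flowers were fewer, and 44 of their 51 calls were called in leaves alone. AT4G18250 fell from 85.2, 73.9 and 84.4 to 3.25, 4.13 and 0.761 in leaves, with at most 8.84 on any flower array (interaction 2.95, SE 0.338, adjusted p = 0.000291). UGT73B5, a glycosyltransferase gene of stress responses, fell from 44.7, 34.6 and 42.7 to 4.66, 7.98 and 7.47 (1.78), and AT4G02360 had an interaction of 1.80. In the other direction AT1G31690 rose from 8.38, 4.37 and 1.17 to 50.1, 70.8 and 65.2 in leaves and was at most 1.84 in flowers (interaction -2.44). A second probe set of AT1G31690 gave -1.60 (adjusted p = 0.00146). AT3G05730 rose from 93.7, 98.3 and 77.8 to 291, 352 and 285 (-1.71). MSRB6, a methionine sulfoxide reductase gene, had 18.7, 25.3 and 1.24 in wild-type and 42.2, 105 and 109 in lug-3 leaves (interaction -1.99), and its call was lost with the covariate (adjusted p = 0.178) and without lug-3 leaves 2 (adjusted p = 0.0751).

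Counting arrays on either side of 16.4 needs no model. In flowers 207 probe sets were above the threshold on all 3 wild-type arrays and on no lug-3 array, and 105 made the reverse step. In leaves 79 were lost in this sense and 114 gained. The interaction was called for 128 of the 207 and 36 of the 105 in flowers. In leaves it was called for 38 of the 79 and 71 of the 114, against 23.0% of all tested. These probe sets were picked for a change within an organ, on the same arrays that enter the interaction. That choice by itself favours a call, so the comparison with 23.0% is no separate evidence that the change depended on the organ.

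Expansins and xyloglucan hydrolases remodel the wall of growing cells. Of 21 tested genes 6 had a negative and none a positive call (median -0.36). The called share of 28.6% was close to the 23.0% of all probe sets. Besides EXPA8, XTH16 and EXLA1 these were EXPB5, XTH33 and XTH32. EXPB5, a beta-expansin gene, fell from 295, 224 and 144 to 42.1, 66.9 and 62.6 in flowers, and its leaf change was -0.04. XTH32 rose in both organs, by 2.0 in leaves and 0.87 in flowers, and its call was lost without lug-3 leaves 2 (adjusted p = 0.0628). The 8 genes with EXPA symbols alone had a median of 0.11 and 1 call, that of EXPA8.

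The next families were formed from shared gene symbols after the data were seen, and their counts stand against 11.5% negative and 11.6% positive calls over all probe sets. All 5 tested beta-tubulin genes had a negative call and a rise in lug-3 leaves, with a median interaction of -1.42, a median leaf change of 0.83 and a median flower change of -0.35, and all 5 kept their call with the covariate. TUB1 had 2.24, 10.7 and 16.1 in wild-type and 39.3, 42.7 and 42.3 in lug-3 leaves, without overlap, and 195, 186 and 173 and 159, 157 and 185 in flowers (interaction -1.71, SE 0.336, adjusted p = 0.00458). TUB9 had the smallest interaction of the family, -0.86, with leaf signals of 283, 256 and 228 in wild type and 355, 374 and 374 in lug-3. Of 11 GH9 endoglucanase genes, which act on wall glucans, 5 had a negative and none a positive call (2 with the covariate), and the estimates of all 11 were negative (median -0.92). Of 10 RALF-like genes 6 were negative and none positive (median -1.11, 3 with the covariate), and of 17 TBL genes 5 were negative and 1, TBL38, positive (median -0.60). The call of TBL38 (1.60) was lost with the covariate (0.66, adjusted p = 0.436) and in single leave-outs (adjusted p up to 0.0981). Of the 14 SWEET sugar transporter genes 5 were negative and 2 positive.

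**Figure D4:**
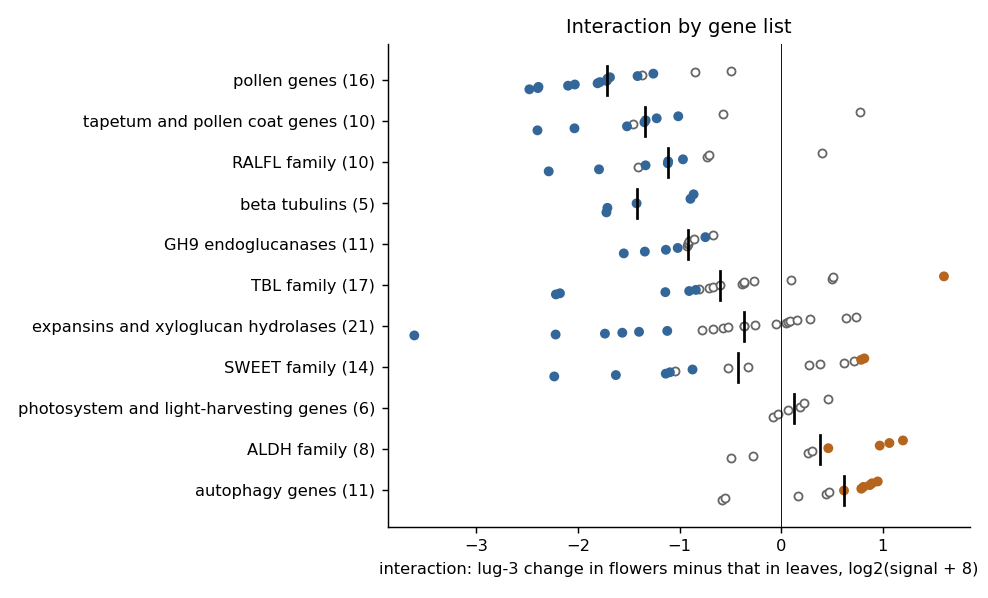
Interaction of each tested gene of 11 lists and symbol families, with the number of genes in brackets, filled points for called genes and a bar at each median. Among these lists the medians of pollen genes (-1.72), beta tubulins (-1.42) and tapetum genes (-1.34) are the lowest and that of autophagy genes (0.62) is the highest.

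Within these families the genes took different routes to a negative interaction. RALFL24 had opposite changes, RALFL34 rose in leaves by 1.38 with a flower change of 0.04, and RALFL25 and RALFL18 fell in flowers, by 2.15 and 1.13, with leaf changes of 0.14 and -0.01. The call of RALFL18 was lost with the covariate (adjusted p = 0.112) and without lug-3 leaves 2 (adjusted p = 0.0806). In the same way GH9B7 rose in leaves, and GH9B11 fell in flowers, from 88.3, 70.5 and 44.9 to 9.41, 18.7 and 11.7, with at most 9.15 on any leaf array, a call that was lost with the covariate (adjusted p = 0.0906). TBL41 had changes of 0.53 in leaves and -1.69 in flowers.

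Autophagy genes held positive calls alone, and most of them fell in lug-3 leaves. Of 11 tested, all expressed in both organs, 6 had a positive and none a negative call, against 11.6% positive over all probe sets. The median change was -0.88 in leaves and -0.16 in flowers, the median interaction was 0.62, and 8 of the 11 passed the test as lower in leaves and 2 as lower in flowers. Most of them encode ATG8 proteins, the ubiquitin-like tags of the autophagosome membrane. ATG8B fell from 199, 193 and 233 to 86, 90.5 and 100.2 in leaves, while flower signals of 253, 261 and 195 and 193, 207 and 229 overlapped (interaction 0.95, SE 0.194, adjusted p = 0.00556). ATG8C fell from 349, 432 and 429.7 to 196, 188 and 196 in leaves (0.87) and ATG8G by 0.89 (0.89). ATG8E, with no interaction call, had changes of -0.35 in leaves and -0.94 in flowers. With the GAPDH covariate 2 of the 6 calls remained. ATG8C kept its call at 0.73 (adjusted p = 0.0496), and ATG8G lost it at 0.51 (adjusted p = 0.0618).

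**Figure D5:**
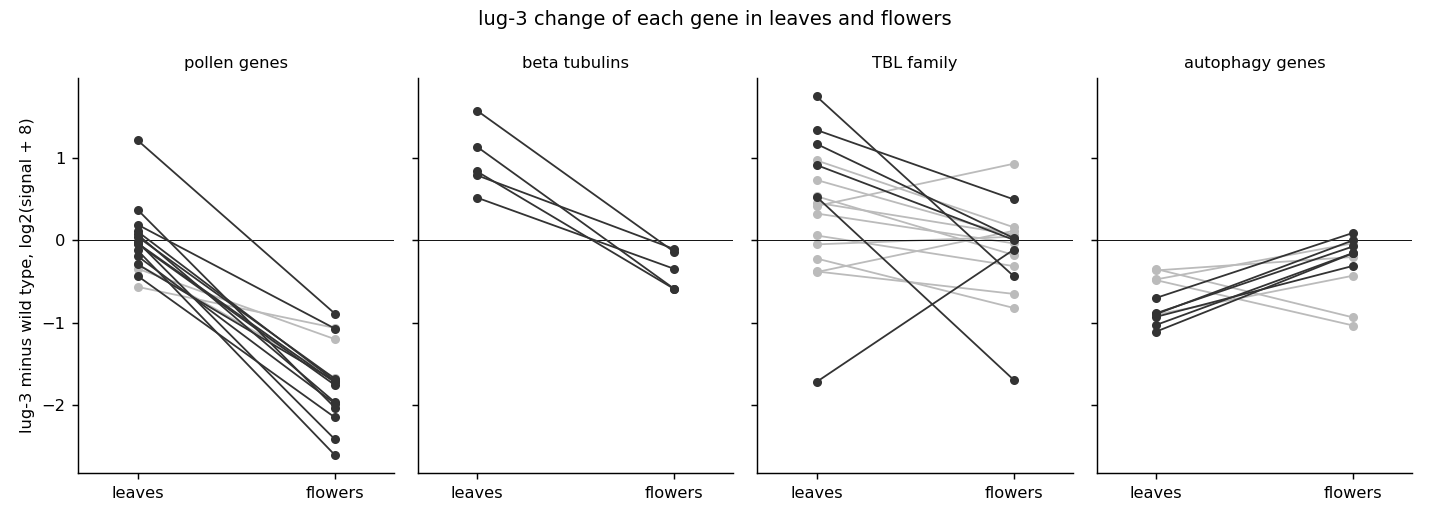
Log2 change in lug-3 of each tested gene in leaves (left point) and flowers (right point) for 4 groups of genes, with dark lines where the interaction was called. Pollen lines drop mostly from near 0 (median -0.04 in leaves), beta-tubulin lines drop from above 0 (median 0.83), TBL lines run mostly downward, and most autophagy lines rise from about -0.88 towards 0.

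Aldehyde dehydrogenase genes, which remove reactive aldehydes, also held positive calls alone, in a family formed after the data were seen. Of 8 ALDH genes 4 were positive and none negative (median 0.38), with ALDH7B4 at 1.20 and ALDH6B2 at 1.07. With the covariate 3 of the 4 calls remained, and the background of positive calls was 11.6%.

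The remaining lists are to be read against 11.6% positive and 11.5% negative calls over all probe sets. Of 13 cytochrome P450 genes 4 were positive and 3 negative, and 3 of these calls remained with the covariate. Of 29 UDP-glycosyltransferase genes 6 were positive and 4 negative, and 8 of these calls remained. Other symbol families also held calls and are not all given here. The lists that follow held 1 to 3 called genes each. Among 6 flavonoid and anthocyanin genes BAN and AT5MAT, an anthocyanin malonyltransferase gene, had negative calls, and 5 of the 6 fell in flowers. The call of AT5MAT was lost with the covariate (adjusted p = 0.0701) and without wild-type flowers 2 (adjusted p = 0.0924). DFR, dihydroflavonol reductase, fell in both organs, by 2.06 in leaves and 3.05 in flowers, and its interaction of -0.98 did not pass the test. Of 6 cell cycle and replication genes 3 were negative and none positive (median -0.84), the Aurora kinase genes AUR2 (-1.53) and AUR1 (-0.74) and PRL (-0.93), a subunit of the replication helicase. Of these, AUR2 and AUR1 kept the call with the covariate, and AUR1 lost it without lug-3 flowers 2 (adjusted p = 0.0512). ARR15 (-1.58) and RR16 were negative among 5 gibberellin, cytokinin and brassinosteroid genes, both lost with the covariate (adjusted p = 0.273 and 0.0524). In that list the 3 gibberellin receptor genes GID1A, GID1B and GID1C had values of 0.61 to 0.70 and did not pass. Among 8 auxin genes IAA18, a repressor of auxin response, was positive (0.97) and GH3.3 negative. Of 18 MADS-box genes 3 were called (16.7%), below the 23.0% of all probe sets. AGL104, a pollen factor, was negative (-1.55) and AGL42 (0.86) and AT1G30260 (1.17) positive, while AGL42 lost its call in single leave-outs (adjusted p up to 0.0872). WRKY47, 1 of 7 WRKY genes, had opposite changes of -0.56 and 0.43. SPT, a carpel margin gene, rose in flowers alone (interaction 0.71), and THI2.1, a thionin gene, in leaves alone (-1.38).

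No interaction was called among 6 photosystem and light-harvesting, 4 Calvin cycle, 4 heat shock, 3 flowering time, 3 senescence, 2 floral organ identity, 2 ethylene and 2 salicylic acid genes by limma. At an unadjusted p under 0.05 there were 2 Calvin cycle genes, 1 senescence gene and 1 salicylic acid gene, and none of the others. The 6 photosystem genes had interactions between -0.08 and 0.46. They are the tested part of a list of 42 loci, and the other lists were likewise tested in part. Among photosystem genes outside the list, psaC had a called interaction of -0.85 (adjusted p = 0.0481). The values for psaA (-2.09, adjusted p = 0.0636) and psaB (0.20, adjusted p = 0.447) did not pass.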

How the data were processed

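Transcript signal was measured on 12 Affymetrix ATH1 arrays, 3 in each of 4 groups. The submitters' processing notes name the tools MAS5 and GCOS, without versions or settings. Values in the deposited file are intensity per probe set, called signal and not log-transformed. The deposited intensity values had been scaled, with a mean of 100.0 on every array after trimming 2% at each end, and were not scaled again. Across the arrays 66.5% to 73.2% of probe sets were above 16.4. Precision is limited by having 3 arrays a group.

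The 64 control probe sets were left out. Signals were taken as log2(signal + 8), which understates changes of weak genes, and 16.4 is the pooled 30th percentile of the other 22746 probe sets. A fit of 4 group means to all 12 arrays (limma 3.58.1, R 4.3.3, lmFit, contrasts.fit, eBayes) gave the interaction and the change within each organ, with 8 residual degrees of freedom, and a call is a Benjamini-Hochberg adjusted p below 0.05 over 17864 probe sets. All adjusted p-values come from this fit unless a setting is named. The fit was also run on simulated data with known interactions, and the outcome is not given here. Of the probe sets, 13513 have 1 gene in the platform annotation and 8730 are unnamed here. Names were updated through a RefSeq gene table (TAIR10.1), without coordinates.

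Named genes are the largest interactions of each class and pattern by rank, and up to 3 of each list with at least 3 tested genes. A gene with several probe sets stands in lists by the brightest. The members and lists were chosen with earlier results of these data known, and symbol families after the data were seen. Same-numbered samples did not deviate together (3 of 18 pairs correlated above 0.1, range -0.11 to 0.18), so replicate numbers were not treated as pairs. Promoter sequences were not analysed here. Other pseudocounts, filters, normalizations, spread models, covariates, class thresholds and left-out arrays were tried.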

Additional observations from a re-analysis of the deposited data

Results flagged for a closer look

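The lug-3 change differed between leaves and flowers by the test of the difference itself for 4112 probe sets. Each gene here was picked by rank among them. The interaction (flower change minus leaf change, log2 scale) was -4.0 for BZIP61, -3.61 for EXPA8, -3.46 for AT1G29660, -3.17 for AT1G22330, -3.14 for AT5G45950 and -3.09 for AT4G18970, all raised in leaves and lowered in flowers. It was 3.89 for HIS1-3, 3.25 for AT1G22160, 2.89 for AT1G67920, 2.84 for AT4G09760, 2.78 for AT5G50360 and 2.61 for AT5G53710, with the signs turned.

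Of genes called in leaves alone, AT2G38240 had -4.79, AT2G10940 -3.42, EXO -2.96 and AT4G23820 -2.93, against 3.46 for AT1G80130, 2.32 for SIS, 2.29 for AT1G01640 and 2.24 for AT1G05340. Of genes called in flowers alone, AT4G15750 had -4.13, HTB11 -2.43, AT2G14900 -2.36 and AT5G09370 -2.18, against 2.83 for AT1G11210, 2.82 for CYP71B26, 2.69 for AT2G05540 and 2.25 for PUB19. With 1 sign in both organs, ATPMEPCRB had -1.60, AT1G73610 -1.17, AT1G64360 1.80 and AT5G39520 1.59.

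Where leaves had no signal above the threshold, BAN had -4.5, AT1G56100 -4.5, AT2G38900 -4.07 and AT2G30810 -3.50, against 2.24 for AT3G47680, 2.11 for AT3G44430, 1.78 for AT4G00910 and 1.51 for CYP71B37. Where flowers had none, AT1G31690 had -2.44, MSRB6 -1.99 and AT3G05730 -1.71, against 2.95 for AT4G18250, 1.80 for AT4G02360 and 1.78 for UGT73B5. Groups of 3 arrays were not tested for single arrays that stand apart.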

How the results depend on the processing

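The interaction count stayed within 1.5 times of 4112 under 25 alternatives, from 2986 with the GAPDH ratio as a covariate to 5632 with array weights. The class not above the threshold in leaves had 250 calls with a pseudocount of 1, and the cause was not tested. It had 197 with the filter on at least 6 arrays and 252 with the median filter, where fewer weak probe sets are tested. The class not above it in flowers had 15 and 21 under those filters, 84 with array weights (cause not tested), 87 and 138 with class thresholds of 30 and 50, and 93 with classes from wild-type arrays alone (an alternative added after seeing the data). Opposite changes numbered 775 with array weights, and the cause was not tested. Leaving out each array in turn gave 3040 to 4471 calls, 2542 to 3767 in both organs, 310 to 387 not above the threshold in leaves, 35 to 71 not above it in flowers, and 116 to 393 opposite changes. The replicate block gave 4038 calls, of which 3745 were shared with the main 4112. Of 141 genes followed by name, none reversed under any alternative, and 33 lost the call under at least 1, among them 26 with the covariate and 19 without the 3 arrays of highest GAPDH ratio. That last fit leaves wild-type leaves 1 alone for wild-type leaves, whose spread is assumed to match the other groups, and gave 3565 calls. Signals near the background limit all classes that rest on 16.4.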
